A study of Homo sapiens with 18 samples.

Results

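The 10 integrin subunit genes described here were ITGA2, ITGA3, ITGA5, ITGA6 and ITGAV, which encode α subunits, and ITGB1, ITGB4, ITGB5, ITGB6 and ITGB8, which encode β subunits. They are 10 of the 26668 gene symbols in the deposited expression table and 10 of 26 integrin subunit genes listed for it. The genes were chosen by measured values of these same libraries, namely the difference between OFD1 knockdown and control cells, in which ITGA3 and ITGB4 were among the stronger falls, in PANC1 and PATU8988T respectively. Their knockdown against control values are therefore given as a description, with a standard error and no p, and counts of them past a threshold are printed only beside those of all genes, with nothing read from them.

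The libraries came from PANC1, MIA PaCa-2 and PATU8988T, 3 established human pancreatic cancer cell lines, with 3 control and 3 OFD1 knockdown libraries per line and 18 in all. Knockdown samples are labelled shOFD1 and received doxycycline, which switches on the short hairpin RNA against OFD1, a protein of the centriole and of the base of the primary cilium, for 72 h. Control samples are titled shControl with the genotype WT and no treatment, whereas the methods of the study name DMSO given to cells that carry the inducible OFD1 hairpin, and which of these the controls were is not settled here. The series text places controls at day 0 and knockdown at day 3, so doxycycline, and time in culture if the controls were taken at day 0, cannot be told apart from the knockdown. PATU8988T replicates 2 and 3 carry other line numbers in the cell line label, and their titles were followed. No label says whether replicates were separate cultures, so errors measure the spread between these libraries, which may be technical.

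Integrins are receptors made of 1 α and 1 β subunit that tie the extracellular matrix to the cytoskeleton. The β1 subunit pairs with many α subunits, α2β1 binding collagen, α3β1 and α6β1 laminin and α5β1 fibronectin, while αV pairs with β1, β5, β6 or β8 to bind vitronectin, fibronectin or latent TGF-β. The pair α6β4 anchors epithelial cells to the basement membrane through hemidesmosomes and is connected to keratins, not to actin. In pancreatic carcinoma, integrins are known for their part in attachment, migration and growth on matrix.

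Upstream sequence was matched in RefSeq (build GRCh38.p14) for 8 of the 10 genes, and ITGA3 and ITGB4 were not among them. The 100 bases before the first start annotated in RefSeq are shown for ITGB5 and ITGA6, which had the largest differences in PANC1 among the matched genes, and for ITGB1, which had the smallest of those that passed the filter of 1 FPKM there. They cover chr3:124901419-124901518 on the minus strand for ITGB5, chr2:172427236-172427335 on the plus strand for ITGA6 and chr10:32958231-32958330 on the minus strand for ITGB1. The GENCODE span of ITGB1 given below reaches further upstream, to 33005792, so the ITGB1 window lies inside it. Capitals mark the GC box, GGGCGG on either strand, the letters of Sp1 family sites.
ITGB5: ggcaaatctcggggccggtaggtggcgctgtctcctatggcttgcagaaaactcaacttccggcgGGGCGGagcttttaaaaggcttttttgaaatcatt
ITGA6: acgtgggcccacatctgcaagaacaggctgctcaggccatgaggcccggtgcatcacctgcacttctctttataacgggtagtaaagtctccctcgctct
ITGB1: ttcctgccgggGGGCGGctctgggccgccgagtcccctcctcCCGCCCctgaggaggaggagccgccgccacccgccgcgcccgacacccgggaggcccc
In the 250 bases before that start, GC boxes numbered 3 for ITGB1, 2 for ITGB5 and 0 for ITGA6, whose other annotated start had 3. Of 35116 such windows of 250 bases, 42.6% hold a GC box. The ITGA6 window also held 1 E-box (CACGTG, in 6.34% of windows), and the AP-1 letters TGANTCA (6.57% of windows) were in none of the matched genes' windows. The CHR letters TTTGAA (13.3% of windows) had 1 match for ITGB5, unmarked in the bases shown, and 1 at another start of ITGAV. The TEAD letters GGAATG (11.9% of windows) had 1 match each for ITGB1 and ITGA5. These matches are letters in a window, and no binding was measured.

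Expression was deposited as FPKM, the reads counted on a gene divided by its length and by the reads of the library, so levels can be set beside each other between genes. Reads recovered from the steps of the FPKM values numbered 32399704 to 39789833 per library. The recovered lengths of the integrin genes agreed within 1% between lines, except for ITGB5, whose length differed by a factor of 1.0705 between PANC1 and the other lines. OFD1 was lower in every knockdown library than in every control of its line, with means of 2.55 against 5.43 FPKM in PANC1, 0.911 against 2.06 in PATU8988T and 1.82 against 2.85 in MIA PaCa-2. MIA PaCa-2 control replicate 2 stood apart from control replicates 1 and 3 for most integrin genes, and each fold change of an integrin gene there is given with and without it. Of 6 epithelial markers, KRT8 and KRT18 were at 316 FPKM or more in every library, but the cadherin CDH1 reached 1 FPKM only in PANC1, EPCAM stayed at 0.0991 FPKM or less in MIA PaCa-2 and KRT19 at 0.0194 or less in PATU8988T. In PANC1 the list moved in both directions, as KRT19 went from 174 to 184 FPKM down to 85.7 to 91.5 and KRT18 from 329 to 339 down to 316 to 321. There KRT8 went up from 412 to 425 FPKM to 494 to 510, EPCAM from 5.61 to 6.28 to 7.89 to 9.11 and CDH1 from 5.95 to 7.34 to 8.25 to 8.48, while KRT7 overlapped. The epithelial sum was 935 to 956 FPKM in controls and 921 to 942 after knockdown in PANC1, 1050 to 1070 and 838 to 909 in PATU8988T, and 1620 to 2200 and 1360 to 1390 in MIA PaCa-2, and its part in the integrin values was not tested. Of the leukocyte markers, CD3E was at 0 in every library, but PTPRC stood at 2.32 to 4.45 FPKM in MIA PaCa-2 controls and 5.89 to 6.22 after knockdown. CD14 went the other way there at low levels, from 0.138 to 0.156 FPKM down to 0.0159 to 0.048. In PANC1, CD14 went from 0.914 to 1.49 FPKM down to 0.343 to 0.897. The fibroblast and endothelial lists stayed below 1 FPKM in sum in every library.

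In control cells, ITGB1 was the most abundant of the 10 transcripts in PANC1 (465 ± 10.3 FPKM, SD, n = 3) and MIA PaCa-2 (179 ± 37.2), and ITGA3 in PATU8988T (360.0 ± 4.87). PANC1 followed with ITGB5 (169 ± 0.79), ITGA3 (146 ± 0.529), ITGA6 (82.6 ± 1.72), ITGAV (78.1 ± 1.46), ITGA5 (50.5 ± 1.07) and ITGA2 (42.8 ± 0.985), and no neighbours in this order overlapped. PATU8988T followed with ITGB1 (281 ± 2.35), ITGA6 (70.4 ± 1.27), ITGB5 (43.1 ± 1.08), ITGA5 (39.4 ± 1.16), ITGB4 (29.9 ± 0.569), ITGAV (27.1 ± 0.7) and ITGA2 (11.3 ± 0.747), again without overlap. In MIA PaCa-2, ITGA3 (41.4 ± 8.85) was clear of the rest, but ITGB5 (12.6 ± 2.98), ITGA5 (12.4 ± 1.78), ITGAV (11.3 ± 4.22) and ITGA6 (6.54 ± 2.02) overlapped with their neighbours. The collagen receptor subunit ITGA2 was thus well expressed in PANC1 and PATU8988T and almost lacking in MIA PaCa-2, at 6 to 16 reads per control library.

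**Figure D1:**
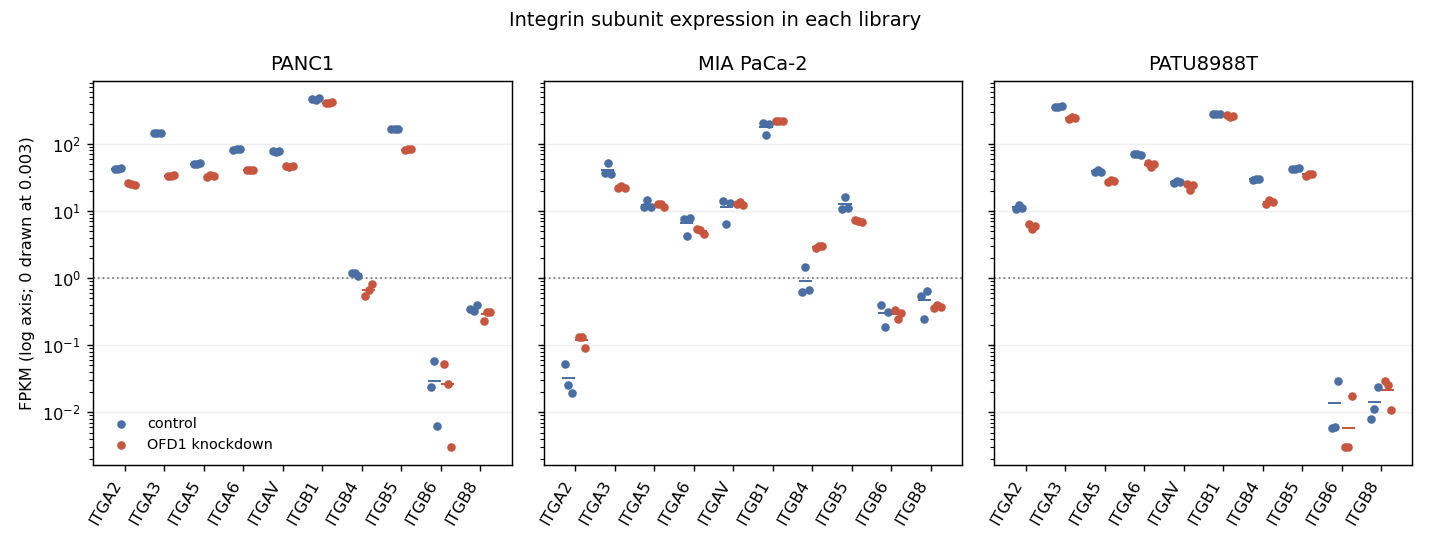
FPKM of the 10 integrin subunit genes in each library (log axis, points; bars are means of 3 libraries), controls in blue and OFD1 knockdown in red, with a dotted line at 1 FPKM. ITGA3 went from a mean of 146 to 33.6 FPKM in PANC1, ITGB4 from 29.9 to 13.6 in PATU8988T but up from 0.918 to 2.92 in MIA PaCa-2, whereas ITGB6 and ITGB8 lay below 1 FPKM in every library.

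ITGA3 encodes the α3 subunit, which with β1 forms a receptor for laminins, and lies at chr17:50055968-50090481 on the plus strand (GRCh38). In PANC1 it was at 146, 147 and 147 FPKM in the 3 controls and 33.4, 33.3 and 34.3 FPKM in the knockdown libraries. This was the largest difference of the 10 genes in that line, with 23.0% of the control level left, and the log2 fold change was -2.12 ± 0.0256 (standard error), rank 30 from the lowest of 10902 genes. In MIA PaCa-2 the controls were at 36.7, 51.7 and 35.9 FPKM and the knockdown libraries at 22.1, 23.7 and 22.2 FPKM. The groups did not overlap, and the log2 fold change was -0.85 ± 0.148, or -0.68 without control replicate 2. In PATU8988T, where ITGA3 was highest, it went from 357, 357 and 365 FPKM to 236, 254 and 247 FPKM. The groups were again apart, with a log2 fold change of -0.55 ± 0.0363. ITGA3 was lower in every knockdown library than in the controls of its line, and the fold was largest in PANC1 and smallest in PATU8988T.

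ITGA6, at chr2:172427354-172506282 on the plus strand, encodes the α6 subunit that pairs with β1 or β4 in laminin receptors. PANC1 controls had 80.7, 84.0 and 83.0 FPKM and knockdown libraries 41.5, 41.3 and 40.8 FPKM. The level was at 49.9% of control, so the log2 fold change of -1.0 ± 0.0278 sat at the edge of a change by a factor of 2. PATU8988T went from 69.7, 71.9 and 69.6 FPKM to 51.3, 45.0 and 50.3 FPKM, a log2 fold change of -0.53 ± 0.0509 without overlap. In MIA PaCa-2, 2 controls at 7.62 and 7.80 FPKM were above the knockdown libraries at 5.33, 5.22 and 4.56 FPKM, and control replicate 2, at 4.22 FPKM, was below all of them. The log2 fold change was -0.32 ± 0.242 with that library and -0.61 ± 0.0733 without it.

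ITGA2, at chr5:52989326-53094779 on the plus strand, encodes the collagen-binding α2 subunit. In PANC1 its controls were at 41.8, 42.7 and 43.8 FPKM and its knockdown libraries at 26.5, 25.0 and 24.7 FPKM, a log2 fold change of -0.75 ± 0.0378. In PATU8988T it went from 10.7, 12.1 and 11.1 FPKM to 6.51, 5.37 and 5.89 FPKM, with 52.4% of control left and a log2 fold change of -0.92 ± 0.0775. ITGA2 thus stood lower in both lines that express it. In MIA PaCa-2 it stayed far below 1 FPKM, at 0.0521, 0.0256 and 0.0196 FPKM in controls and 0.131, 0.134 and 0.0898 FPKM after knockdown, or 6 to 16 against 27 to 40 reads.

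ITGA5, at chr12:54395261-54419460 on the minus strand, encodes the α5 subunit of the fibronectin receptor. PANC1 went from 49.8, 50.1 and 51.8 FPKM to 32.7, 33.9 and 33.6 FPKM (log2 fold change -0.60 ± 0.0313), and PATU8988T from 38.6, 40.7 and 38.8 FPKM to 27.2, 29.5 and 28.2 FPKM (-0.48 ± 0.0436). The groups were apart in both lines, at 66.1% and 71.9% of control. MIA PaCa-2 had overlapping groups, with 11.5, 14.5 and 11.3 FPKM in controls and 12.6, 12.6 and 11.5 FPKM after knockdown. Its log2 fold change was -0.02 ± 0.12, or 0.10 ± 0.05 without control replicate 2.

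ITGAV, at chr2:186590065-186680901 on the plus strand, encodes the αV subunit. In PANC1 it went from 79.7, 77.0 and 77.6 FPKM to 46.6, 45.9 and 47.2 FPKM, a log2 fold change of -0.75 ± 0.0276. In PATU8988T the change was small, from 26.3, 27.6 and 27.4 FPKM to 25.6, 20.7 and 24.3 FPKM, with groups just apart and a log2 fold change of -0.21 ± 0.0717 that was -0.12 without knockdown replicate 2. In MIA PaCa-2, control replicate 2 at 6.45 FPKM stood below the other controls at 14.2 and 13.3 FPKM, while the knockdown libraries had 12.9, 13.6 and 12.5 FPKM. The log2 fold change of 0.28 ± 0.289 turned to -0.08 ± 0.0512 without that library.

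ITGB1, at chr10:32900319-33005792 on the minus strand, encodes β1, the common partner of the α subunits above. In PANC1 it was at 465, 456 and 476 FPKM in controls and 412, 414 and 416 FPKM after knockdown. PATU8988T had 281, 283 and 278 FPKM against 267, 249 and 265 FPKM. In both lines the groups did not overlap and the difference was small, with log2 fold changes of -0.17 ± 0.0197 and -0.11 ± 0.0368, or 88.9% and 92.8% of control. MIA PaCa-2 controls were at 203, 136 and 198 FPKM and knockdown libraries at 219, 223 and 221 FPKM. Knockdown was above control there, by 0.32 ± 0.152 on the log2 scale or 0.14 ± 0.0202 without control replicate 2.

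ITGB5, at chr3:124761948-124901418 on the minus strand, encodes β5, which with αV forms a vitronectin receptor. It went from 168, 169 and 169 FPKM to 81.2, 83.0 and 83.6 FPKM in PANC1, with 48.9% of control left and a log2 fold change of -1.03 ± 0.0224. MIA PaCa-2 went from 10.7, 16.0 and 11.1 FPKM to 7.27, 7.04 and 6.95 FPKM, a log2 fold change of -0.80 ± 0.164 that was -0.61 without control replicate 2. PATU8988T went from 42.4, 42.5 and 44.3 FPKM to 33.7, 36.1 and 35.4 FPKM (-0.30 ± 0.0409). Like ITGA3, ITGB5 was lower in every knockdown library of all 3 lines, with the same order of the lines by size.

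ITGB4, at chr17:75721328-75757818 on the plus strand, encodes β4, which pairs with α6 alone and has a long cytoplasmic tail that reaches plectin. In PATU8988T, which expresses it most, the controls had 29.3, 30.0 and 30.4 FPKM and the knockdown libraries 12.9, 14.4 and 13.5 FPKM. This was the largest difference among the integrin genes of that line, with 45.5% of control left, a log2 fold change of -1.13 ± 0.0498 and rank 54 from the lowest of 10698 genes. In PANC1 the level was near 1 FPKM, from 1.21, 1.20 and 1.08 FPKM in controls to 0.543, 0.656 and 0.82 FPKM, or 256 to 304 against 121 to 193 reads. The groups were apart, but the mean was below the filter of 1 FPKM, and without the filter the log2 fold change was -0.73 ± 0.164. In MIA PaCa-2 the direction was the opposite, from 0.629, 1.46 and 0.664 FPKM to 2.82, 2.97 and 2.97 FPKM. All knockdown libraries were above all controls, by 1.66 ± 0.294 on the log2 scale or 2.01 ± 0.0972 without control replicate 2, and ITGB4 passed the filter there only through the knockdown libraries. The summed FPKM of the mesenchymal markers VIM, ZEB1 and CDH2, nearly all VIM, moved with the same signs as ITGB4, from 1410 to 1420 down to 795 to 817 in PANC1, from 779 to 812 down to 591 to 623 in PATU8988T and from 3480 to 3590 up to 4790 to 4980 in MIA PaCa-2. Of these markers CDH2 was at 0 in MIA PaCa-2, and the part of this shift in ITGB4 was not tested.

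ITGB6 and ITGB8 encode αV partners that activate latent TGF-β, and neither reached 1 FPKM in any library. ITGB6 was between 0.189 and 0.396 FPKM in MIA PaCa-2, or 35 to 72 reads, and had at most 10 reads in the other lines. ITGB8 was between 0.25 and 0.634 FPKM in MIA PaCa-2 and between 0.231 and 0.4 FPKM in PANC1, and had at most 11 reads in PATU8988T. Control and knockdown libraries overlapped for both genes in each line, except ITGB8 in PANC1, where knockdown was at 0.231, 0.316 and 0.318 FPKM and control at 0.347, 0.319 and 0.40 FPKM. ITGB6 shares 20.6% of its exon bases with AC092153.1 on the same strand, so its low counts cannot be assigned with certainty. Antisense genes overlap at most 2.66% of the exon bases of the others (ITGA6), and whether strand was used in counting is not given.

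**Figure D2:**
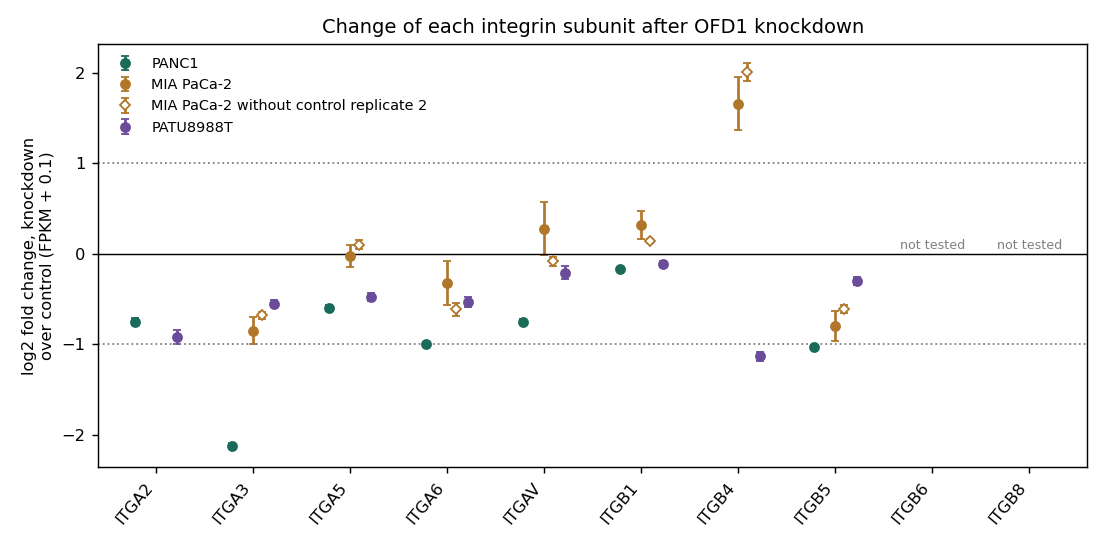
Log2 fold change of knockdown over control on the scale of FPKM + 0.1 for the integrin genes that passed the filter in each line, with standard errors; open diamonds are MIA PaCa-2 without control replicate 2, and dotted lines mark a change by a factor of 2. PANC1 values run from -2.12 for ITGA3 to -0.17 for ITGB1, PATU8988T values from -1.13 for ITGB4 to -0.11 for ITGB1, and MIA PaCa-2 values fall on both sides of 0, with ITGB4 at 1.66.

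A mean of 1 FPKM was reached by 7 of the 10 genes in PANC1, by 8 in PATU8988T and by 7 in MIA PaCa-2. The threshold of the study joins an adjusted p below 0.05 to a change by over a factor of 2, and by it 3 were lower in PANC1 (ITGA3, ITGB5 and ITGA6, the last at the limit), where 4.84% of all genes tested passed as lower and 1.75% as higher. In MIA PaCa-2, ITGB4 alone passed, as higher, against 3.68% of all genes as lower and 4.07% as higher. In PATU8988T, ITGB4 alone passed, as lower, against 0.841% as lower and 0.159% as higher. Just outside the fold limit lay ITGA2 and ITGAV in PANC1 (-0.75 each), ITGA3 and ITGB5 in MIA PaCa-2 (-0.85 and -0.80) and ITGA2 in PATU8988T (-0.92). Nothing is read from these counts, since the contrast chose the genes.

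With the adjusted p alone, 7 were lower in PANC1, where 32.2% of all genes were lower and 40.1% higher. In MIA PaCa-2, 2 were lower and 1 higher, against 21.7% and 18.7%, and in PATU8988T 8 were lower, against 18.5% and 20.9% of all genes. Knockdown libraries were wholly below controls for 7 genes of 7 in PANC1, with 33.4% of all genes below and 41.7% above, and for 8 of 8 in PATU8988T, with 24.0% and 27.9%. In MIA PaCa-2, 2 were wholly below, 2 wholly above and 3 overlapped, with 31.3% and 28.0% of all genes. The median log2 fold change of the genes that passed the filter was -0.75 in PANC1 (0.06 over all genes), -0.50 in PATU8988T (0.03) and -0.02 in MIA PaCa-2 (-0.03), and it leaves out the genes below 1 FPKM.

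The make-up of the α subunits, taken as shares of the summed FPKM of the 5 α genes, showed how the differences varied in size. In PANC1, ITGA3 made up 36.6%, 36.6% and 36.4% of this sum in controls and 18.5%, 18.6% and 19.0% after knockdown. ITGAV, at 25.8% ± 0.253 (SD, n = 3), then held the largest share there. In MIA PaCa-2, ITGA3 held 52.4%, 67.2% and 52.6% in controls and 41.6%, 42.9% and 43.7% after knockdown, so control replicate 2 widened the gap but the other controls were also apart. In PATU8988T, ITGA3 kept its share, 71.0%, 70.1% and 71.3% against 68.1%, 71.6% and 69.4%, with overlapping groups. These shares describe RNA, and neither protein nor paired receptor was measured.

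Relative to ITGB1, the sum of the α genes was lower after knockdown in all 3 lines. It went from 400.0 ± 2.53 to 180.0 ± 0.768 FPKM in PANC1, from 508 ± 5.21 to 352 ± 4.7 in PATU8988T and from 71.7 ± 4.49 to 53.0 ± 2.17 in MIA PaCa-2. Per unit of ITGB1, the α sum went from 0.856, 0.878 and 0.846 to 0.439, 0.433 and 0.435 in PANC1, and from 1.79, 1.80 and 1.84 to 1.30, 1.42 and 1.34 in PATU8988T. In MIA PaCa-2 this ratio was 0.344, 0.564 and 0.345 in controls and 0.243, 0.248 and 0.231 after knockdown. ITGA6 outweighed its hemidesmosomal partner ITGB4 by a ratio of 71.0 ± 5.11 in PANC1 controls and 63.1 ± 13.3 after knockdown. That ratio went from 12.1, 2.88 and 11.7 to 1.89, 1.76 and 1.53 in MIA PaCa-2, and from 2.38, 2.40 and 2.29 to 3.99, 3.12 and 3.73 in PATU8988T. The ratio of ITGA6 to ITGB4 thus moved in opposite directions in MIA PaCa-2 and PATU8988T, without overlap in either.

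The control libraries of MIA PaCa-2 and PATU8988T, whose recovered gene lengths were the same, allowed a comparison of levels between lines that did not choose the genes. A mean of 1 FPKM in each line was reached by 6 of the 10 genes, and all 6 were lower in MIA PaCa-2, with adjusted p from 3.03e-06 to 0.00702 in limma. Of these, 5 passed the fold limit, against 12.4% of the 9620 genes at 1 FPKM in both lines as lower and 11.9% as higher, and 4 did so without MIA PaCa-2 control replicate 2. The gap, MIA PaCa-2 minus PATU8988T on the log2 scale, was widest for the laminin receptor subunits ITGA6 (-3.46 ± 0.231, adjusted p = 1.96e-05) and ITGA3 (-3.13 ± 0.142, adjusted p = 3.03e-06), followed by ITGB5 (-1.79), ITGA5 (-1.67) and ITGAV (-1.34, or -0.98 without that library). ITGB1 differed least of the 6, by -0.67 ± 0.153 (adjusted p = 0.00702), and stayed within a factor of 2. ITGA2 and ITGB4 passed the filter only through PATU8988T, where they are high, so their gaps are given without a p, at means of 0.0324 against 11.3 FPKM for ITGA2 and 0.918 against 29.9 FPKM for ITGB4. ITGB6 and ITGB8 were not tested, and stood higher in MIA PaCa-2, at means of 0.298 and 0.474 FPKM against 0.0137 and 0.0142. Line and any batch of sequencing cannot be told apart in this comparison. In the knockdown libraries of the same lines, the gaps were -3.43 for ITGA3, -3.25 for ITGA6, -2.29 for ITGB5, -1.21 for ITGA5, -0.85 for ITGAV and -0.24 for ITGB1, wider than in controls for ITGA3 and ITGB5 and narrower for the other 4. For ITGA6 the control gap was as small as -3.17 among the alternatives, so whether its gap was narrower after knockdown depends on the setting. The change of a gap from control to knockdown restates the knockdown differences that chose the genes, so nothing is read from it.

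Other genes of integrin adhesion were taken from 6 lists, 129 genes in all, which did not include the 10 subunits. In PANC1, 92 were tested, and 45 were lower (48.9%) and 28 higher (30.4%) at an adjusted p below 0.05. The fold limit was passed by 8 lower and 2 higher. With a library left out it was passed by 7 to 10 lower and by 2 higher, or 1 higher without knockdown replicate 3. In PATU8988T, 83 were tested, 31 were lower (37.3%) and 12 higher (14.5%), and 2 passed the fold limit, both lower (1 without control replicate 3, 4 without knockdown replicate 3). In MIA PaCa-2, 80 were tested, 13 were lower (16.2%) and 17 higher (21.2%), and 2 passed, both higher (3 without control replicate 1 or 3). Without control replicate 2, 32 were lower and 32 higher in MIA PaCa-2, and with any 1 knockdown library left out 5 to 6 were lower and 9 to 11 higher. The shares with all libraries are to be read against those of all genes given above. No share over all genes is given for a fit with a library left out, so nothing is read from such counts here or below.

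Among the ligands, the basement membrane linker NID1 fell in PANC1 from 39.6, 39.0 and 40.3 FPKM to 15.3, 16.7 and 15.4 FPKM, a log2 fold change of -1.32 ± 0.0423 (limma, adjusted p = 2.84e-09). The type VI collagen chain COL6A1 fell in PANC1 from 2.82 ± 0.183 to 0.89 ± 0.0769 FPKM (-1.56), where it passed the filter only through the controls, so no p is given. It fell in PATU8988T from 11.7 ± 0.423 to 5.74 ± 0.154 FPKM (-1.02, adjusted p = 1.99e-06). In MIA PaCa-2 it also fell, by 0.69 on the log2 scale (adjusted p = 0.0152, up to 0.0651 with a knockdown library left out), or by 0.51 without control replicate 2, within the fold limit. COL5A1, a chain of type V collagen, fell in PANC1 (-1.05, adjusted p = 7.23e-06). It also fell in PATU8988T from 1.88 ± 0.123 to 0.808 ± 0.0638 FPKM (-1.13), where it passed the filter only through the controls, so no p is given. COL6A2 was the fourth ligand below the fold limit in PANC1 (-1.01 ± 0.145), at the edge of that limit, and is given without a p.

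Fibronectin (FN1), the ligand of α5β1, rose in PANC1 from 1.95, 2.18 and 2.02 FPKM to 6.94, 6.32 and 6.35 FPKM (1.63 ± 0.0785, adjusted p = 4.27e-08), while it fell in PATU8988T (-0.46, adjusted p = 0.00431) and was at 0.0541 FPKM or less in MIA PaCa-2. Thrombospondin 1 (THBS1) rose in PANC1 from 3.05 ± 0.367 to 6.29 ± 0.416 FPKM (1.03, adjusted p = 4.81e-06). In MIA PaCa-2, the fibrillar collagen chain COL3A1 rose from 6.75, 6.03 and 6.32 FPKM to 30.6, 30.2 and 29.6 FPKM (2.23 ± 0.0822, adjusted p = 0.000126, and 2.19 without control replicate 2). The matricellular protein CCN1, which binds αV integrins, rose there from 28.8, 34.0 and 28.6 FPKM to 78.9, 80.3 and 78.7 FPKM (1.38 ± 0.0878, adjusted p = 0.000185, and 1.46 without control replicate 2). CCN1 fell in PANC1 (-0.32, adjusted p = 3.93e-06) and rose in PATU8988T (0.41, adjusted p = 2.01e-05), both within the fold limit.

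The tetraspanin CD151, which binds α3β1 and α6β4 directly, fell in PANC1 from 262, 268 and 262 FPKM to 129, 120 and 125 FPKM (-1.08 ± 0.0277, adjusted p = 7.53e-10). It was lower in PATU8988T (-0.17, adjusted p = 0.0275, 0.00846 to 0.0989 over the alternatives). It was also lower in MIA PaCa-2 (-0.81, adjusted p = 0.0448, 2.83e-07 to 0.122 over the alternatives), where control replicate 2 was at 230.0 FPKM and the others at 117 and 115, and the log2 fold change without it was -0.48. Of the hemidesmosome list, 5 of 6 genes tested were lower in PATU8988T at an adjusted p below 0.05, where 18.5% of all genes were lower. With any 1 control library left out it was 3 of 6. In PANC1, 3 of 5 were lower and 1 higher, against 32.2% and 40.1% of all genes. The list was mixed in MIA PaCa-2, with 1 of 4 lower and 2 higher, against 21.7% and 18.7%. DST, a plakin that binds β4, rose in PANC1 (0.54, adjusted p = 1.6e-07) and MIA PaCa-2 (0.93, adjusted p = 0.00674, and 0.73 without control replicate 2) and fell in PATU8988T (-0.25, adjusted p = 0.0328, 0.00379 to 0.11 over the alternatives). DST was named after its values were seen. A second tetraspanin, CD82, fell in PANC1 from 9.82 ± 0.797 to 4.40 ± 0.0624 FPKM (-1.14, adjusted p = 2e-07). It was also lower in PATU8988T (-0.90 ± 0.196), without overlap, while the groups overlapped in MIA PaCa-2 (0.33 ± 0.193).

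Among activators and actin linkers in PANC1, 14 of 24 were lower and 4 higher at an adjusted p below 0.05, against 32.2% and 40.1% of all genes. The focal adhesion proteins LPP (-1.27 ± 0.0626, adjusted p = 5.08e-08) and TGFB1I1 (-1.13 ± 0.108, adjusted p = 6.28e-06) passed the fold limit there. In PATU8988T, 9 of 23 were lower and 1 higher, against 18.5% and 20.9%. The list leaned the other way in MIA PaCa-2, with 3 of 22 lower and 6 higher, against 21.7% and 18.7%. These were 6 and 12 without control replicate 2. Signalling genes were spread on both sides, with 7 of 21 lower and 9 higher in PANC1, 4 of 20 lower and 4 higher in PATU8988T and 4 of 19 lower and 2 higher in MIA PaCa-2. Without control replicate 2, 11 were lower and 4 higher in MIA PaCa-2, and 2 were lower without knockdown replicate 2 or 3 and 1 higher without knockdown replicate 1 or 3. Of the 16 integrin subunits that are not among the 10, a mean of 1 FPKM was reached by 3 in PANC1, 4 in PATU8988T and 1 in MIA PaCa-2. The collagen receptor subunit ITGA10, named after its values were seen, rose in PANC1 from 9.50, 7.86 and 8.64 FPKM to 17.2, 16.2 and 17.2 FPKM (0.96, adjusted p = 6.69e-07). It fell in PATU8988T from 2.0, 1.92 and 1.92 FPKM to 1.11, 0.756 and 0.954 FPKM (-0.99). There it passed the filter of a mean of 1 FPKM only through the controls, so no p is given.

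**Figure D3:**
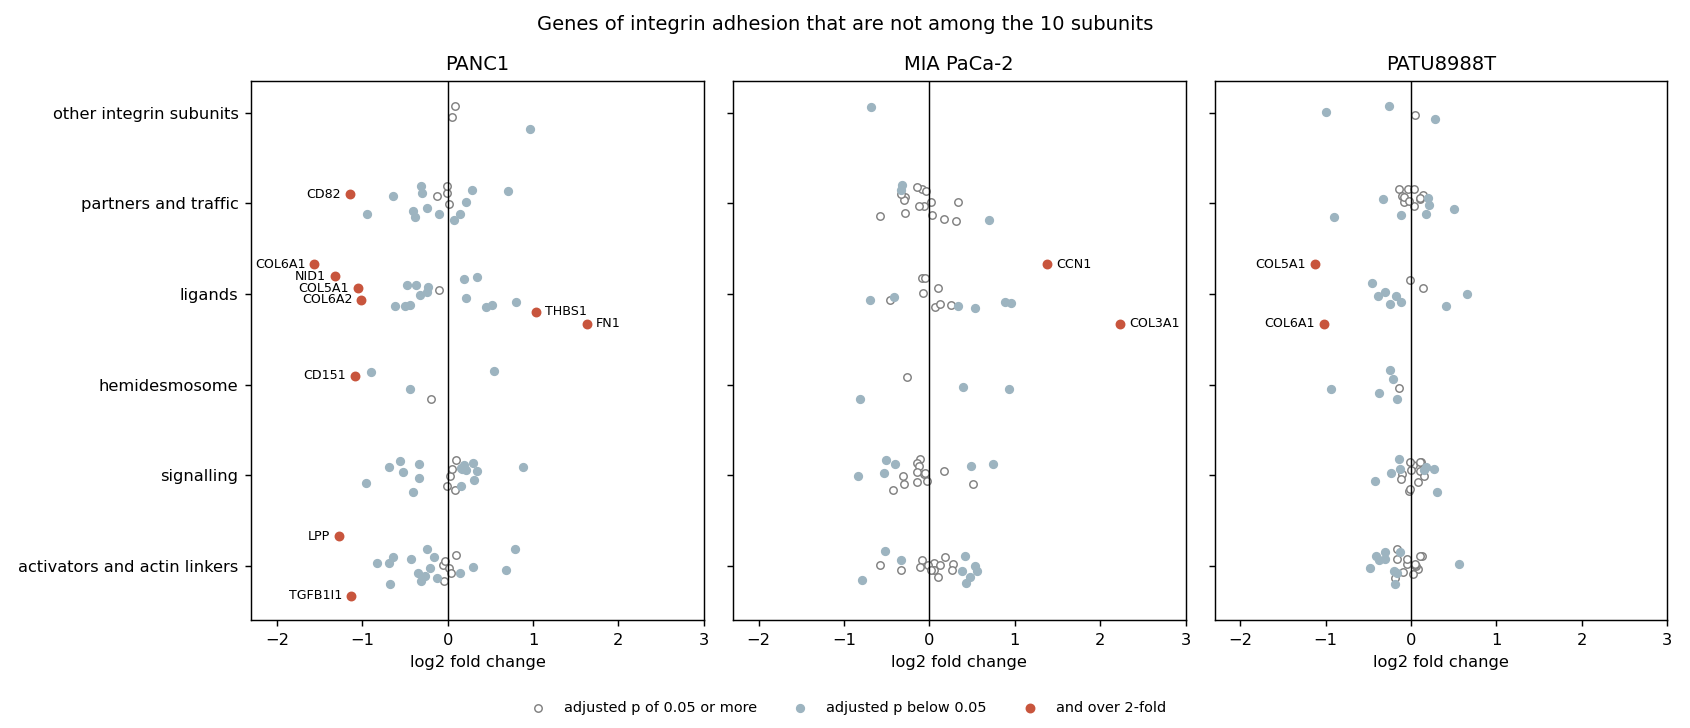
Log2 fold change of knockdown over control for the genes tested in 6 lists of integrin adhesion (rows) in each line, with open points at an adjusted p of 0.05 or more, blue points below 0.05 and red points also past a factor of 2. The red points are 8 falls and 2 rises in PANC1, the rises of COL3A1 (2.23) and CCN1 (1.38) in MIA PaCa-2, and the falls of COL5A1 (-1.13) and COL6A1 (-1.02) in PATU8988T.

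Likeness was taken as Pearson's r of log2(FPKM + 0.1), centred on each line, over the 18 libraries, which fall into controls and knockdowns and share lines, so r is a description. Of 9082 genes, the drug efflux pump ABCC1 (r = 0.996), the β-tubulin TUBB (0.994), IQGAP3 (0.988), the lysosomal sulfatase GALNS (0.987) and TMBIM1 (0.986) were most like ITGA3. All had negative log2 fold changes in the 3 lines, a shared direction that picking by r favours. ABCC1, for one, was at -1.20 on the log2 scale in PANC1, -0.39 in PATU8988T and -0.45 in MIA PaCa-2 (-0.35 without control replicate 2). Of the other integrin genes, ITGB5 was most like ITGA3 (r = 0.956) and ITGB6 least (-0.019).

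ITGB4 was most like HLA-B (r = 0.989), a class I antigen-presenting molecule, followed by NIPSNAP1 (0.975), HSD3B7 (0.97), the AP-1 subunit JUNB (0.97) and the matrix protein EFEMP2 (0.969). All of them were higher in MIA PaCa-2 knockdown and lower in the other lines, again as picking by r favours. EFEMP2, for one, was at -0.89 in PANC1, -1.42 in PATU8988T and 1.77 in MIA PaCa-2 (1.97 without control replicate 2). ITGA2 was the integrin gene most like ITGB4 (r = 0.824), and its usual partner ITGA6 was at 0.121.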

How the data were processed

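RNA-seq was made from control and OFD1 knockdown cells of 3 lines. Per the methods of the study, HISAT2 was the aligner and HTSeq-count the counter. The authors deposited FPKM values, and no counts were used here as the main measure. The labels name an RNeasy and SMARTer preparation, the methods TRIzol and a VAHTS kit. The submitters' processing notes list hg38, GRCm38 and mm10, and the build behind these columns and the annotation are not given in the sources used here. Within each line, genes with a mean of at least 1 FPKM were fitted as log2(FPKM + 0.1) in limma 3.58.1 (R 4.3.3), with a variance trend and Benjamini-Hochberg adjustment over all genes of the line. Fold changes are on that scale, which understates those of low genes, and SEs are moderated. The methods name a count test, so only its threshold was used (adjusted p below 0.05, fold above 2 or below 0.5). FPKM steps gave whole reads for 15432, 18704 and 19416 genes in PANC1, MIA PaCa-2 and PATU8988T, used for depth, gene lengths and a voom fit as an alternative. The recovery and the fits were tested on simulated data. Counting error alone is covered by read numbers. With 3 libraries against 3, an exact permutation test cannot give p below 0.1.

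The integrin genes, the lists and the tests were chosen with earlier results of these data known. The text names the 10 genes, OFD1, for each list and line the 3 largest falls and rises past the threshold, and the 5 genes most like ITGA3 and ITGB4, and says where it goes further. Gene positions are from GENCODE v29 (GRCh38) and upstream sequences from RefSeq. Alternatives were pseudocounts, filters, median scaling, no variance trend, voom, a replicate block and each library left out. Figures were drawn with matplotlib 3.10.9 in Python 3.11.15.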

Additional observations from a re-analysis of the deposited data

Results flagged for a closer look

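For 4 integrin genes, ITGA2, ITGAV, ITGB1 and ITGB4, every knockdown library lay above the control mean in MIA PaCa-2 and below it in another line. The differences between lines were not tested. The log2 fold change of ITGB4 in MIA PaCa-2 exceeded that in PATU8988T by 2.79 and that in PANC1, where its mean was below 1 FPKM, by 2.39. For ITGA2, which had 6 to 40 reads per library in MIA PaCa-2, the excess was 1.47 over PANC1 and 1.65 over PATU8988T. For ITGB1 the MIA PaCa-2 value exceeded that of PANC1 by 0.49 and that of PATU8988T by 0.43. Without control replicate 2 the MIA PaCa-2 log2 fold change was 0.14 instead of 0.32 for ITGB1 and 2.01 instead of 1.66 for ITGB4. For ITGAV the excess was 1.03 over PANC1 and 0.49 over PATU8988T, but its sign in MIA PaCa-2 turned without control replicate 2, where it was -0.08.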

How the results depend on the processing

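The direction of each tested integrin gene's difference was the same under every alternative, except for ITGAV and ITGA5 in MIA PaCa-2, whose values near 0 crossed it. ITGAV turned to -0.08 without control replicate 2, and ITGA5 (-0.02) reached 0.10. The number of integrin genes past the threshold rose from 3 to 7 in PANC1, from 1 to 3 in MIA PaCa-2 and from 1 to 8 in PATU8988T with the adjusted p alone, since the fold limit was dropped. It was 0 in MIA PaCa-2 with a filter at 5 FPKM, which removes ITGB4. The number of other adhesion genes past the threshold rose with the adjusted p alone from 10 to 73 in PANC1, from 2 to 30 in MIA PaCa-2 and from 2 to 43 in PATU8988T. With a filter at 5 FPKM it was 5 in PANC1 and 1 in PATU8988T, and with no filter 16 in PANC1 and 5 in MIA PaCa-2, as fewer or more genes were tested. It was 0 in PATU8988T with a pseudocount of 1, where the log2 fold changes of both genes shrank. With each PATU8988T library left out in turn it ranged from 1 to 4. The PANC1 count of 3 integrin genes was 2 with a pseudocount of 1, with median scaling, and without control replicate 2, control replicate 3 or knockdown replicate 3, as ITGA6 lies at the fold limit. Between MIA PaCa-2 and PATU8988T controls, 5 of 6 integrin genes passed the threshold, 4 without MIA PaCa-2 control replicate 2 or in the knockdown libraries, and 5 under the other pseudocounts, filters, scaling, block and libraries left out that were run for it. ITGA2 in MIA PaCa-2 minus PATU8988T was -3.57 with a pseudocount of 1 and -8.13 with 0.01.

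Deviations of same-numbered libraries correlated at -0.111 to 0.13, and those of differently numbered libraries at -0.231 to 0.226. Replicate numbers thus showed no clear pairing, but with 3 libraries per group this cannot tell whether samples were made in pairs. With the replicate block, the numbers of integrin genes past the threshold were unchanged at 3, 1 and 1, and those of other adhesion genes at 10, 2 and 2, in PANC1, MIA PaCa-2 and PATU8988T. Genes below 1 FPKM, ITGB6 and ITGB8 among them, were not tested, and the values of ITGB6 and ITGB8 rest on few reads.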
